A study of Mus musculus with 16 samples.

Results

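The genes described here are the 10 genes of MHC class II antigen presentation, chosen by name from the deposited tables: the chains H2-Aa, H2-Ab1 and H2-Eb1, the invariant chain Cd74, the transactivator Ciita, the peptide-loading genes H2-DMa, H2-DMb1 and H2-DMb2, and the loading regulators H2-Oa and H2-Ob. All 10 were found among the 41740 genes listed, and all 10 passed the filter on low counts, which kept 15267 genes. The RNA came from the whole ileal wall of 16 male mice aged 20 weeks. Every mouse carried the floxed insulin receptor alleles and was made a STAM mouse, a model of diabetes with steatohepatitis, with streptozotocin at day 2 of life and, from the age of 4 weeks, high-fat feeding. Control-STAM-nonINS mice (n = 4) lacked Villin-Cre and received normal saline in place of insulin. Control-STAM-INS mice (n = 6) had the same genotype and received the long-acting insulin degludec by 2 injections a day from 6 weeks of age, at up to 12 U/kg. The 6 libraries labelled ieIRKO-STAM-INS came from insulin-treated mice in which Villin-Cre, active in the intestinal epithelium, was to delete the receptor.

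MHC class II molecules are heterodimers that display peptides from endocytosed proteins to CD4+ T cells. Dendritic cells, macrophages and B cells make them constitutively, and enterocytes of the small intestine can make them when exposed to interferon-gamma. Ciita switches on the chain genes, Cd74 and the loading genes together, Cd74 guards the peptide groove until the endosome, H2-DM exchanges the remaining fragment of Cd74 for peptide, and H2-O, which is found mainly in B cells, restrains H2-DM.

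The chain, loading and regulator genes lie in the MHC on chromosome 17 of GRCm38, from H2-Oa at 34092340 to the end of H2-Eb1 at 34316674. Ciita lies on chromosome 16. Promoter sequences from RefSeq (GRCm38.p6) were found for 7 of the 10 genes. H2-Ab1, Cd74 and Ciita had no entry. The factors that recruit Ciita bind an X box and, nearer the start, a Y box. The Y box core GATTGG was searched on both strands, and so was AACNNATG, letters of the X box that were chosen with these promoters in view. Of the 32851 promoter windows of 300 bases, 16.1% held the first and 8.86% the second, while 0.0913% held the second followed within 30 bases by the first on the same strand. The windows of H2-Eb1, H2-DMb1, H2-DMb2 and H2-Ob had this arrangement. Since the letters were chosen with these promoters in view, that share is no test of these matches. Of the patterns searched, H2-Aa and H2-Oa had only the Y box core, which does not show that they lack an X box. H2-DMa has 2 annotated starts, and only the window of the downstream start held the core, at position -199. The stretches from 140 to 38 bases before the start are shown for 5 genes: chains of the abundant kind and the scarce genes described further on, with and without the paired boxes. Capitals mark AACNNATG and GATTGG, read 5′ to 3′ along the gene.

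H2-Aa: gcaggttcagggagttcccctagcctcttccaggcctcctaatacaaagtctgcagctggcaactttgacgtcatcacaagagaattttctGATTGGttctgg
H2-Eb1: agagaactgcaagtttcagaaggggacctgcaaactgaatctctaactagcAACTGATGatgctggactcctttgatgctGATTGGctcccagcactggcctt
H2-DMb2: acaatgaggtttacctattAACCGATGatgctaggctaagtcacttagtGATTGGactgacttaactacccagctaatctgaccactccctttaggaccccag
H2-Oa: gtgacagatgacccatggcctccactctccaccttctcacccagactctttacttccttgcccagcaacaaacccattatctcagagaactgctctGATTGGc
H2-Ob: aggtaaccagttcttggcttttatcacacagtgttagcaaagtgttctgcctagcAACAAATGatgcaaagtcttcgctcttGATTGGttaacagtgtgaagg

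In GRCm38.p6 these stretches are chr17:34287861-34287963 on the minus strand for H2-Aa, and on the plus strand chr17:34305727-34305829 for H2-Eb1, chr17:34145109-34145211 for H2-DMb2, chr17:34092239-34092341 for H2-Oa and chr17:34238765-34238867 for H2-Ob. The boxes were 21 bases apart in H2-Eb1, 22 in H2-DMb2 and 19 in H2-Ob. In H2-DMb1 they were also 22 bases apart, with the Y box core at position -62. The H2-DMb1 stretch is not shown, because 82 of its 103 bases lie in an annotated exon of that gene in GENCODE. A match describes these letters alone.

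Between 13288018 and 22215382 reads were counted per library. Insr, the targeted gene, had a mean of 62.7 CPM (reads scaled to library size after TMM) in Control-STAM-INS and 67.2 in the libraries labelled ieIRKO-STAM-INS, with a log2 difference of 0.10 ± 0.13 (SE) and an adjusted p of 0.805 from edgeR, so the targeted gene was not lower in these libraries than in the insulin-treated controls. Both groups were lower than Control-STAM-nonINS, with log2 differences of -0.75 ± 0.14 (adjusted p = 0.00275, edgeR) for Control-STAM-INS and -0.65 ± 0.14 (adjusted p = 0.00582) for ieIRKO-STAM-INS. The whole wall also holds cells in which Villin-Cre is not active. Replicates 2 and 3 of ieIRKO-STAM-INS stood apart in B cell genes: their 10 B cell markers summed to 616 and 348 CPM, against 24.8 to 69.4 in the other 14 libraries. Group differences of the 10 genes that rest on these libraries are followed by the edgeR value without them. A bulk measurement cannot tell more cells of a type from more RNA per cell. Epithelial markers (Krt8 the highest, with Epcam and Vil1) summed to 9943 to 17820 CPM, and smooth muscle markers (Myh11 the highest) to 2253 to 3506, and 0 of these 8 and 6 genes were called in the insulin comparison, the ieIRKO comparison (ieIRKO-STAM-INS against the insulin-treated controls) or that with untreated mice, where 10.5%, 0.223% and 13.3% of all genes were called.

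Cd74 and the chains were among the well-detected transcripts of the wall, and the regulators were scarce. To compare genes, CPM was divided by the length of the principal transcript. Cd74 had a median of 1049 CPM per kilobase over the 16 libraries, followed by H2-Ab1 at 413, H2-Aa at 344 and H2-Eb1 at 169. This order held in all 16 libraries, although the ranges of H2-Ab1 and H2-Aa, and of H2-Aa and H2-Eb1, overlapped between mice. The loading genes H2-DMb1 and H2-DMa had medians of 37.4 and 26.4 CPM per kilobase, and Ciita had 3.52. H2-DMb2 at 2.47, H2-Ob at 1.35 and H2-Oa at 0.928 came last. Ciita exceeded H2-DMb2 in 12 of 16 libraries and H2-Ob exceeded H2-Oa in 14 of 16, so neither order held in every mouse. The lowest H2-Oa value rested on 10 reads and the lowest Cd74 value on 14076, and the scarce genes carry the larger counting error.

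**Figure D1:**
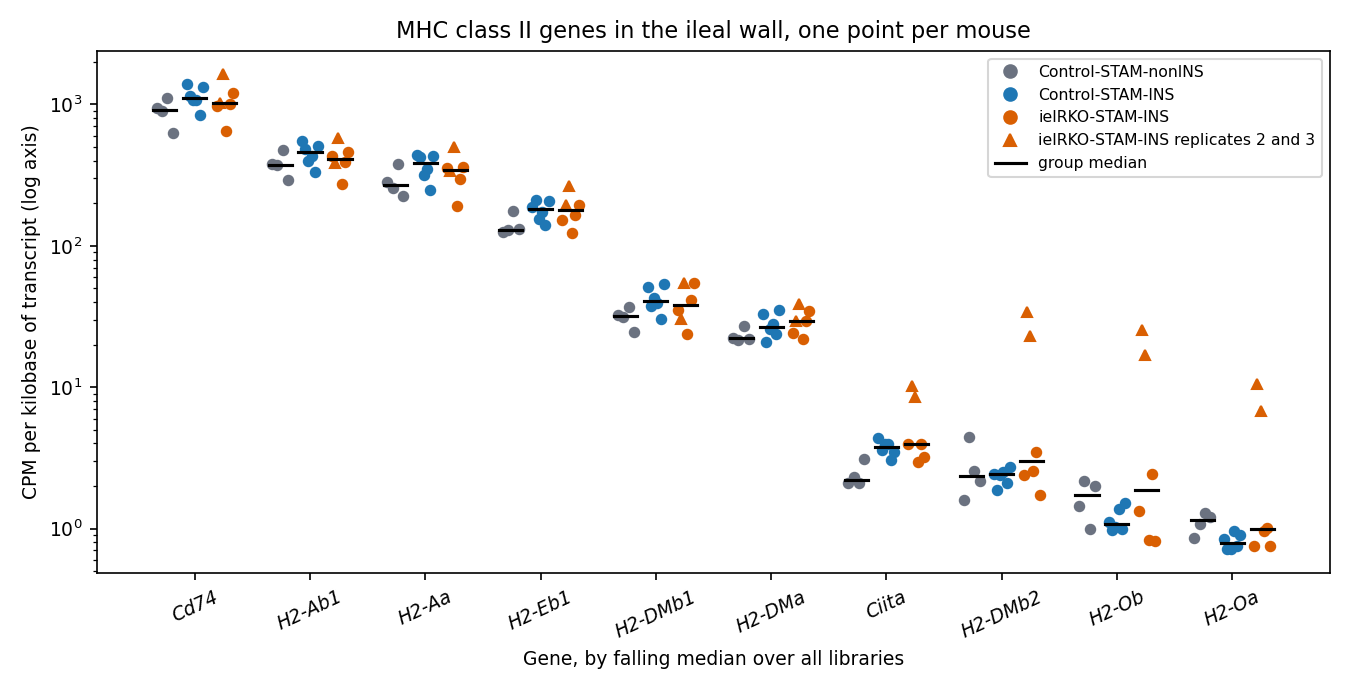
Level of each class II gene in CPM per kilobase of its principal transcript, on a log axis, with 1 point per mouse coloured by group, triangles for ieIRKO-STAM-INS replicates 2 and 3, and a bar at the group median. The 6 genes at the left lie in overlapping ranges in the 3 groups, while the triangles of Ciita, H2-DMb2, H2-Ob and H2-Oa sit above every other mouse.

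The chains and the invariant chain varied together from mouse to mouse. Within a library, H2-Aa reads amounted to 64.0 to 82.0% of H2-Ab1 reads, and Cd74 reads to 253 to 329%, over the 16 libraries. The 6 pairs among H2-Aa, H2-Ab1, H2-Eb1 and Cd74 had Pearson correlations of log2 CPM between 0.84 and 0.976. With H2-DMa and H2-DMb1 added, the 15 pairs lay between 0.683 and 0.976. Ciita followed these 6 genes less closely, at 0.276 to 0.634. Over the 14 libraries without ieIRKO-STAM-INS replicates 2 and 3, the ranges were 0.848 to 0.981, 0.6 to 0.981 and 0.29 to 0.456. These correlations describe 16 libraries from 3 groups with different depths, so differences of group and depth can enter them. Replicate 3 of ieIRKO-STAM-INS had the highest level of all 16 libraries for each of the 6 genes.

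The class II chains, which form the peptide groove, did not pass the test in any comparison. H2-Ab1, the I-A beta chain, measured 459, 452, 578 and 352 CPM without insulin. In Control-STAM-INS it ran from 402 to 672 with a median of 556, and in ieIRKO-STAM-INS from 331 to 698 with a median of 500. The 3 groups overlapped, and the untreated replicate 3 lay above 3 of the 6 insulin-treated controls. H2-Aa, the I-A alpha chain, measured 321, 289, 430 and 255 CPM without insulin. With insulin its controls ran from 279 to 492 with a median of 435, and ieIRKO-STAM-INS ran from 216 to 560 with a median of 390.5. These ranges overlapped as well. H2-Eb1, the I-E beta chain, measured 210, 215, 295 and 220 CPM without insulin, so that 3 mice were close together and replicate 3 stood above them. Its insulin-treated controls ran from 234 to 350 with a median of 302, and ieIRKO-STAM-INS ran from 206 to 442 with a median of 300. Cd74, the chaperone of the chains, lies outside the MHC on chromosome 18. It measured 1330, 1262, 1558 and 892 CPM without insulin, 1180 to 1956 with a median of 1575 in the insulin-treated controls, and 917 to 2299 with a median of 1436 in ieIRKO-STAM-INS. The insulin-treated controls again overlapped the untreated mice, with 3 of 6 above all 4.

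Insulin treatment of the control genotype came with higher means of these genes, none of them past the threshold. The log2 fold changes of Control-STAM-INS against Control-STAM-nonINS were 0.36 ± 0.22 (SE) for H2-Aa, 0.25 ± 0.18 for H2-Ab1, 0.35 ± 0.18 for H2-Eb1 and 0.36 ± 0.21 for Cd74. By edgeR's quasi-likelihood test their adjusted p-values were 0.326, 0.424, 0.225 and 0.297. Exact two-sided permutation tests on log2 CPM gave p = 0.143, 0.2, 0.0667 and 0.114, where these group sizes allow 0.00952 at the least. The 95% interval of Cd74 ran from -0.05 to 0.76. Without Control-STAM-nonINS replicate 4 the values were 0.14 for H2-Ab1 and 0.22 for Cd74, and without replicate 3 they were 0.38 and 0.48. Replicate 4 was lowest in its group for both genes, and it stood apart in other lists: its epithelial markers summed to 9943 CPM against 15750 to 17240 in the other 3 untreated mice, and its class I genes to 3747 against 4992 to 5609. The part of this in the class II values was not tested. In all, 0 of the 10 genes were called (adjusted p under 0.05) and 0 had an unadjusted p under 0.05, while 10.5% of all genes tested were called. DESeq2 also called 0 of them, where it called 13.6% of all genes. It gave 3 of them an unadjusted p under 0.05, a level for which the share of all genes is not given here. The median log2 fold change was 0.30 over the 10 genes and -0.004 over all genes tested, and 7 of the 10 values were positive.

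**Figure D2:**
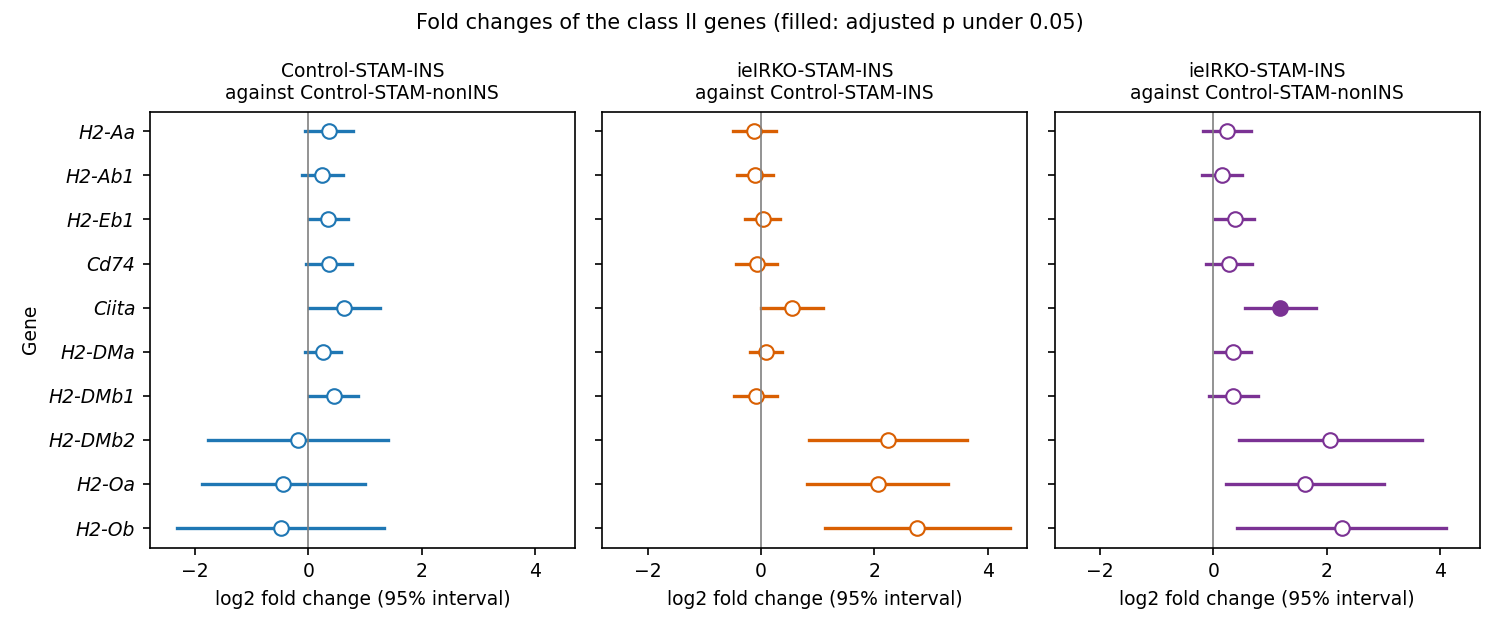
Log2 fold change of each class II gene in the 3 comparisons (x axis), with bars for the 95% interval from edgeR and filled points for an adjusted p under 0.05. The only filled point is Ciita in ieIRKO over untreated mice, and the bars of H2-DMb2, H2-Oa and H2-Ob are the widest.

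In the ieIRKO comparison none of the chains was called. The log2 fold changes of ieIRKO over the insulin-treated controls were -0.12 ± 0.19 (SE) for H2-Aa, -0.10 ± 0.16 for H2-Ab1, 0.03 ± 0.16 for H2-Eb1 and -0.08 ± 0.18 for Cd74. The 95% intervals ran from -0.50 to 0.26 for H2-Aa and from -0.28 to 0.33 for H2-Eb1. Without replicates 2 and 3, H2-Aa was at -0.30 ± 0.20, H2-Ab1 at -0.21 ± 0.17, H2-Eb1 at -0.18 ± 0.15 and Cd74 at -0.26 ± 0.19. Over the 10 genes, 0 were called by edgeR, where 0.223% of all genes tested were called. Of the 10, 3 had an unadjusted p under 0.05, a level for which the share of all genes is not given here. Without replicates 2 and 3, 0 of the 10 were called and 0 had an unadjusted p under 0.05, where 0.151% of all genes were called.

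The loading genes H2-DMa and H2-DMb1 were not called in any comparison. H2-DMb1, the beta chain of H2-DM, measured 45.5, 43.8, 52.1 and 34.2 CPM without insulin. It ran from 42.7 to 76.0 with a median of 57.5 in the insulin-treated controls and from 33.3 to 76.5 with a median of 53.6 in ieIRKO-STAM-INS. Of the insulin-treated controls, 5 of 6 lay above all untreated mice, and replicate 5 lay among them. Its insulin fold change was 0.45 ± 0.22 (SE) on the log2 scale, with an adjusted p of 0.216 from edgeR and an exact permutation p of 0.0667. H2-DMa, the alpha chain, measured 37.1, 36.0, 44.7 and 36.6 CPM without insulin, 34.4 to 58.5 with a median of 44.55 in the insulin-treated controls, and 36.3 to 64.2 with a median of 48.5 in ieIRKO-STAM-INS. The groups overlapped, and its insulin fold change was 0.26 ± 0.16 (adjusted p = 0.343, edgeR). The H2-DMa gene overlaps Brd2 on the opposite strand, and the strand setting of the counting is not given in the sources used here, so reads of Brd2, which had 47806 over all libraries against 12291 for H2-DMa, could be among those of H2-DMa.

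H2-DMb2, H2-Oa and H2-Ob were high in ieIRKO-STAM-INS replicates 2 and 3 and low in every other mouse. H2-DMb2 encodes a second beta chain of H2-DM. It measured 3.41, 48.5, 32.8, 3.65, 4.93 and 2.47 CPM in ieIRKO-STAM-INS replicates 1 to 6, against 2.67 to 3.91 in the insulin-treated and 2.28 to 6.35 in the untreated controls. H2-Oa, the alpha chain of H2-O, measured 0.817, 11.4, 7.33, 1.04, 1.10 and 0.823 CPM in the 6 ieIRKO-STAM-INS libraries. In the insulin-treated controls it ran from 0.779 to 1.05, and without insulin from 0.938 to 1.40. H2-Ob, the beta chain of H2-O, measured 3.54, 68.2, 45.1, 2.21, 6.50 and 2.17 CPM in ieIRKO-STAM-INS. Its insulin-treated controls ran from 2.59 to 4.05 and its untreated controls from 2.63 to 5.80. The other 4 ieIRKO-STAM-INS libraries thus lay in or near the range of the controls. For H2-Ob the lower of replicates 2 and 3 was 6.94 times the highest of the other 14 libraries.

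The fold changes of these 3 genes in the ieIRKO comparison were large with large errors. They were 2.25 ± 0.71 (SE) for H2-DMb2, 2.06 ± 0.63 for H2-Oa and 2.76 ± 0.83 for H2-Ob on the log2 scale. The adjusted p-values from edgeR were 0.305, 0.292 and 0.292, and the exact permutation p-values were 0.156, 0.106 and 0.18. DESeq2 called H2-Oa (adjusted p = 0.0295) and H2-Ob (adjusted p = 0.0305), where it called 0.832% of all genes. Without replicates 2 and 3 the log2 fold changes were 0.10 ± 0.25, 0.08 ± 0.25 and 0.20 ± 0.30, with adjusted p-values of 0.958, 0.972 and 0.931 from edgeR. The difference between the groups therefore rested on 2 of 6 libraries.

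These 3 genes were high in the same libraries as B cell markers. Over the median of the other 14 libraries, replicate 2 had 14.1 times as much H2-DMb2, 11.9 times as much H2-Oa and 20.9 times as much H2-Ob. For the B cell receptor component Cd79a it had 8.96 times as much, for Cd79b 10.7 times and for the B cell surface protein Ms4a1 48.8 times. The corresponding values in replicate 2 were 1.01 for H2-Aa, 0.928 for H2-Ab1, 1.22 for H2-Eb1 and 0.983 for Cd74. In replicate 3 they were 9.51 for H2-DMb2, 7.66 for H2-Oa and 13.9 for H2-Ob. The chains had 1.49 for H2-Aa, 1.4 for H2-Ab1 and 1.66 for H2-Eb1 there, and Cd74 had 1.56. Ciita was high in both libraries, at 3.08 times the median of the other 14 in replicate 2 and 2.55 times in replicate 3. None of the 10 B cell markers was at 0 in any library, and 3 of them, Cd79a, Fcer2a and Fcrla, were called higher in ieIRKO-STAM-INS than in untreated mice, where 13.3% of all genes were called, and 0 of 10 without replicates 2 and 3, where 8.32% were. Genes of lymphoid follicles, which include the B cell attractant Cxcl13, summed to 180 and 111 CPM in replicates 2 and 3 against 14.9 to 32.9 in the others. Other immune cell markers were also high there. T cell markers summed to 88.6 and 78.8 CPM in replicates 2 and 3 against 16.5 to 45.3 elsewhere and dendritic cell markers to 56.8 and 56.7 against 16.1 to 36.7. Of the macrophage markers Lyz2 had 211 and 202 CPM against at most 85.8, while the other 9 were at or below the highest of the other 14 libraries, except Cd68 in replicate 3 (8.19 against 8.13 CPM). Ccr7, a receptor that guides cells to lymphoid tissue, had 11.5 and 8.01 CPM against at most 1.36. H2-Eb2, a further class II beta chain gene outside the 10, had 28.5 CPM in replicate 2, 17.4 in replicate 3 and 0.961 to 3.94 elsewhere. The part of these cells, B cells included, in the values of the class II genes was not tested. With a covariate made of Cd79a, Cd79b and Ms4a1 (their mean level on the log2 CPM scale) H2-Ob came to -0.61 ± 0.20 (adjusted p = 0.689, edgeR) in the ieIRKO comparison, and 0 of the 10 genes were called where 0.0917% of all genes were. This covariate is highest in the same replicates 2 and 3, so the adjusted values lean on them. With only the 2 insulin-treated groups in the fit 0 were called as well, where 0.218% of all genes were.

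**Figure D3:**
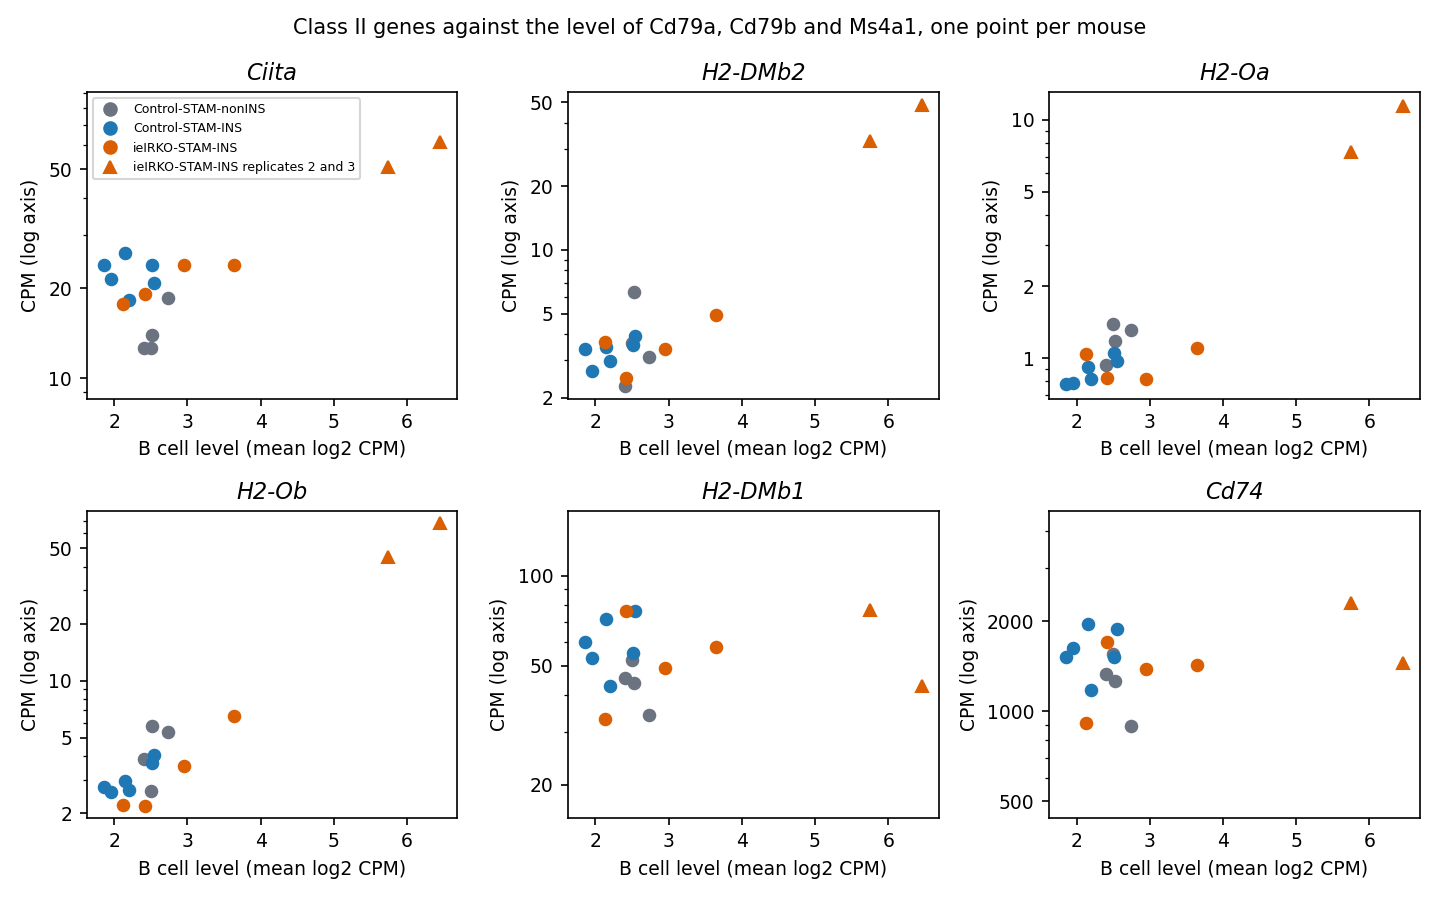
CPM of 6 class II genes (log axis) against the B cell level (Cd79a, Cd79b and Ms4a1 averaged as log2 CPM), with 1 point per mouse coloured by group and triangles for ieIRKO-STAM-INS replicates 2 and 3. The B cell level was 6.46 and 5.75 in the triangles and at most 3.64 elsewhere. H2-DMb2, H2-Oa and H2-Ob rise with it to the upper right. The triangles of Ciita also lie above every other mouse, by a smaller factor, and H2-DMb1 and Cd74 do not separate.

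The paralogs H2-DMb1 and H2-DMb2 share sequence but parted in these libraries. Of the 50-base words in H2-DMb1 transcripts, 22.7% also occur in another gene, all of them in H2-DMb2, and the treatment of reads that match several places is not given in the sources used here. H2-DMb2 reads amounted to 3.24 to 14.5% of H2-DMb1 reads in 14 libraries and to 114% and 42.8% in ieIRKO-STAM-INS replicates 2 and 3. With both genes summed, the log2 fold change was 0.19 ± 0.22 (SE) in the ieIRKO comparison and 0.40 ± 0.24 in the insulin comparison, and neither was called. The sum was not fitted without replicates 2 and 3. H2-Oa reads were 23.5% and 11.4% of H2-DMa reads in replicates 2 and 3, against 1.43 to 3.58% elsewhere. The boxes in the H2-DMb1 and H2-DMb2 promoters, given above, lie the same distance apart.

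Among the controls the means of the scarce genes were lower with insulin, without a call. H2-Oa measured 0.938, 1.18, 1.40 and 1.31 CPM without insulin, with a median of 0.865 in the insulin-treated controls. The exact permutation test on log2 CPM gave p = 0.0286 for H2-Oa, 0.686 for H2-DMb2 and 0.133 for H2-Ob, and these p-values are not corrected for the 30 tests of this kind. The edgeR fold changes were -0.44 ± 0.73 (SE), -0.18 ± 0.81 and -0.49 ± 0.93, with errors that include the spread of ieIRKO-STAM-INS replicates 2 and 3. Without these libraries the errors fell to 0.24, 0.25 and 0.29, and the adjusted p-values were 0.279, 0.716 and 0.318. The ratio of H2-Oa to H2-DMa reads was 2.53 to 3.58% without insulin and 1.66 to 2.28% with it, ranges that did not overlap. H2-Oa itself overlapped, at 0.938 to 1.40 CPM without insulin and 0.779 to 1.05 with it, and the mean of H2-DMa was higher with insulin. How often other pairs of genes part in this way was not computed. These ratios rest on few H2-Oa reads, at least 10 and at most 30 in a control library, over a count that may hold Brd2 reads. The matching ratios of H2-Ob to H2-DMb1 reads (5.05 to 15.7% and 4.15 to 6.69%) and of H2-DMb2 to H2-DMb1 reads (5.0 to 14.5% and 4.85 to 6.995%) overlapped. Genes of lymphoid follicles summed to 26.0 to 32.9 CPM without insulin and 14.9 to 23.0 with it. Of these 7 genes 0 had a positive fold change and 0 were called. Without replicates 2 and 3 Cxcl13 was called lower at -0.99 ± 0.25 (adjusted p = 0.0168, edgeR), where 9.99% of all genes were called. Their part in the scarce genes was not tested.

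Ciita was the one gene of the 10 that edgeR called in a comparison of all libraries. It measured 12.66, 13.96, 12.58 and 18.5 CPM without insulin. In Control-STAM-INS it measured 26.2, 21.5, 23.9, 23.9, 18.3 and 20.8 CPM, and in ieIRKO-STAM-INS 23.9, 61.5, 50.8, 17.7, 24.0 and 19.2. Of the insulin-treated controls, 5 of 6 lay above all untreated mice, and replicate 5 lay just below the untreated replicate 4. Without insulin, 3 mice were close together and replicate 4 was higher. These values rest on 178 to 912 reads per library.

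In the insulin comparison Ciita had a log2 fold change of 0.63 ± 0.32 (SE), a ratio of 1.55, with an adjusted p of 0.229 from edgeR and an exact permutation p of 0.019. Without ieIRKO-STAM-INS replicates 2 and 3 the value was 0.65 ± 0.14 and the adjusted p was 0.00693 (edgeR), which made Ciita 1 of 10 called where 9.99% of all genes were called. With only these 2 groups in the fit it was 0.65 ± 0.13 with an adjusted p of 0.00665, where 11.8% of all genes were called. With the B cell covariate it was 0.78 ± 0.13 with an adjusted p of 0.000869, where 11.1% of all genes were called. Leaving out any 1 library left it between 0.58 and 0.78, with adjusted p-values that did not pass in any of the 16 fits.

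Against Control-STAM-nonINS, Ciita was called higher in ieIRKO-STAM-INS, with a log2 fold change of 1.18 ± 0.32 (SE) and an adjusted p of 0.0257 from edgeR. It was the only 1 of the 10 genes called, a share that is not above the 13.3% of all genes called in this comparison. The exact permutation p was 0.019. Without replicates 2 and 3 the change was 0.55 ± 0.15 with an adjusted p of 0.0286 from edgeR, where 8.32% of all genes were called. Leaving out each library in turn left the log2 fold change between 0.91 and 1.33, and 12 of 16 fits kept the call. It was lost with only the 2 groups in the fit (log2 fold change 1.18, adjusted p = 0.0952, edgeR, 6.92% of all genes called), without Control-STAM-nonINS replicate 1 (0.0817), 2 (0.0524) or 3 (0.0719), and without ieIRKO-STAM-INS replicate 3 (0.0507). DESeq2 called Ciita, H2-DMb2, H2-Oa and H2-Ob here, where it called 17.5% of all genes. Without replicates 2 and 3 the edgeR values were -0.07 for H2-DMb2, -0.35 for H2-Oa and -0.28 for H2-Ob, with adjusted p-values of 0.905, 0.448 and 0.634. The B cell covariate left Ciita called at 0.47 ± 0.14 (adjusted p = 0.0452, edgeR) and turned H2-Ob to -0.70 ± 0.20 (adjusted p = 0.0368), where 7.77% of all genes were called. The covariate was 6.46 and 5.75 in ieIRKO-STAM-INS replicates 2 and 3 and at most 3.64 elsewhere. The same libraries hold the high H2-Ob values, so the adjusted H2-Ob value leans on them and is not read as a lower level. This comparison shares its untreated mice with the insulin comparison, so the results are not independent. Between the libraries labelled ieIRKO-STAM-INS and the insulin-treated controls Ciita differed by 0.55 ± 0.28 with all libraries (adjusted p = 0.481, edgeR) and by -0.09 ± 0.13 without replicates 2 and 3. The Ciita gene overlaps Dexi on the opposite strand, which had 3228 reads over all libraries against 6461 for Ciita.

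**Figure D4:**
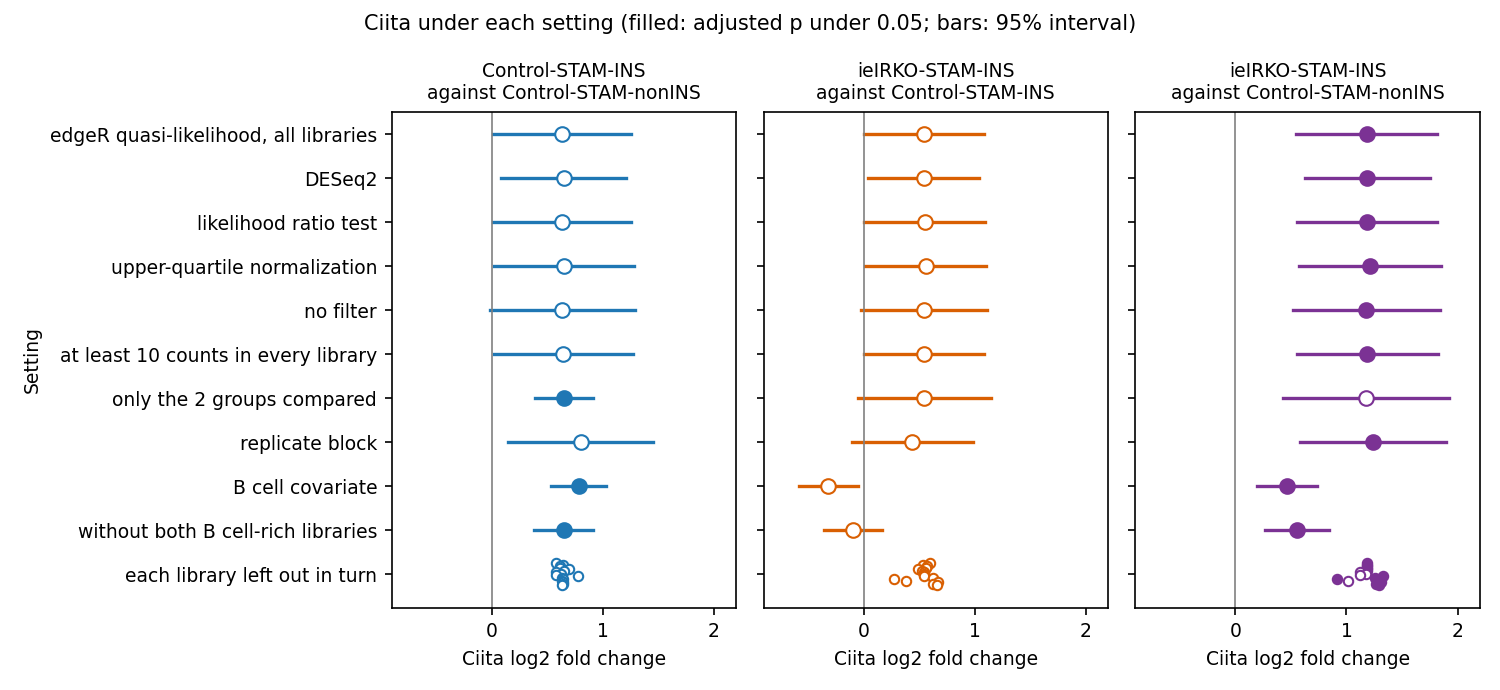
Log2 fold change of Ciita (x axis) in the 3 comparisons under each setting (y axis), with bars for the 95% interval, filled points for an adjusted p under 0.05 and small points for each library left out in turn. In the insulin comparison the points lie between 0.58 and 0.80 under all settings, while the bars shorten and the points fill where ieIRKO-STAM-INS replicates 2 and 3 do not enter or the B cell level is a covariate.

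Among the genes that lead from interferon-gamma to Ciita, Irf1 rose with insulin. Irf1, a transcription factor that acts on the interferon-responsive promoter of Ciita, had 101 ± 15.01 CPM (SD, n = 4) without insulin and 177 ± 38.1 (SD, n = 6) with it. Its lowest insulin-treated control, at 151 CPM, lay above its highest untreated mouse, at 120. Its log2 fold change was 0.81 ± 0.15 (SE), with an adjusted p of 0.00262 from edgeR. Of the 6 genes of this list described here 1 was called higher and 0 lower, where 10.5% of all genes were called. The other 5 were the receptor chains Ifngr1 and Ifngr2, the kinases Jak1 and Jak2 and the factor Irf8, and their log2 fold changes lay between -0.28 and 0.12. Ifng itself did not pass the filter and measured at most 0.270 CPM in any library. In the ieIRKO comparison, Irf1 differed by -0.08 ± 0.13, and 0 of the 6 were called. Against the untreated mice, where 13.3% of all genes were called, Irf1 was higher in ieIRKO-STAM-INS at 0.73 ± 0.15 (adjusted p = 0.00422, edgeR) and 0.68 ± 0.16 without replicates 2 and 3 (adjusted p = 0.0174). Ifngr1 was lower there, with a log2 fold change of -0.35 ± 0.11 and an adjusted p of 0.0363 (edgeR). Without replicates 2 and 3 its log2 fold change was -0.345 ± 0.129, of nearly the same size with a larger error, and the adjusted p was 0.104.

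The factors that sit on the X and Y boxes showed no call in any comparison. These are Rfx5, Rfxap and Rfxank, Creb1, and Nfya, Nfyb and Nfyc. Their log2 fold changes with insulin lay between -0.03 and 0.25, and Nfyc came nearest with an adjusted p of 0.0775 from edgeR. In the ieIRKO comparison they lay between -0.16 and 0.24.

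Of 9 tested genes of the endosomal list, which holds proteases, the reductase Ifi30 and the membrane protein Cd63, 4 fell with insulin and 0 rose, where 10.5% of all genes were called in either direction. Ctsl, the protease cathepsin L, which trims the invariant chain in some cell types, had 113 ± 20.7 CPM (SD, n = 4) without insulin and 61.8 ± 6.89 (SD, n = 6) with it. The 4 untreated mice lay at 95.4 to 136 and the 6 treated ones at 50.9 to 70.9, without overlap. Its log2 fold change was -0.87 ± 0.11 (SE), with an adjusted p of 0.000175 from edgeR. The protease legumain (Lgmn) fell by 0.53, cathepsin H (Ctsh) by 0.50 and Cd63, a membrane protein of late endosomes and lysosomes that neither cuts nor reduces antigen, by 0.42 on the log2 scale, with adjusted p-values of 0.0223, 0.0258 and 0.00383. Ctss, the main protease of the invariant chain in professional antigen-presenting cells, had a log2 fold change of 0.14 ± 0.11 with an adjusted p of 0.491, and Ifi30, which reduces disulfide bonds of antigen, had -0.15 with an adjusted p of 0.268. In the ieIRKO comparison 0 of the 9 were called, and Ctsl differed by -0.002 ± 0.102. Between ieIRKO-STAM-INS and untreated mice 2 of the 9 were called lower, where 13.3% of all genes were called: Ctsl at -0.875 ± 0.112 and Cd63 at -0.50 ± 0.08. Leaving out replicates 2 and 3 gave -0.87 (adjusted p = 0.00141, edgeR) and -0.46 (adjusted p = 0.0107). Many cell types make these genes, and the cells in which Ctsl, Lgmn, Ctsh and Cd63 fell were not measured.

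**Figure D5:**
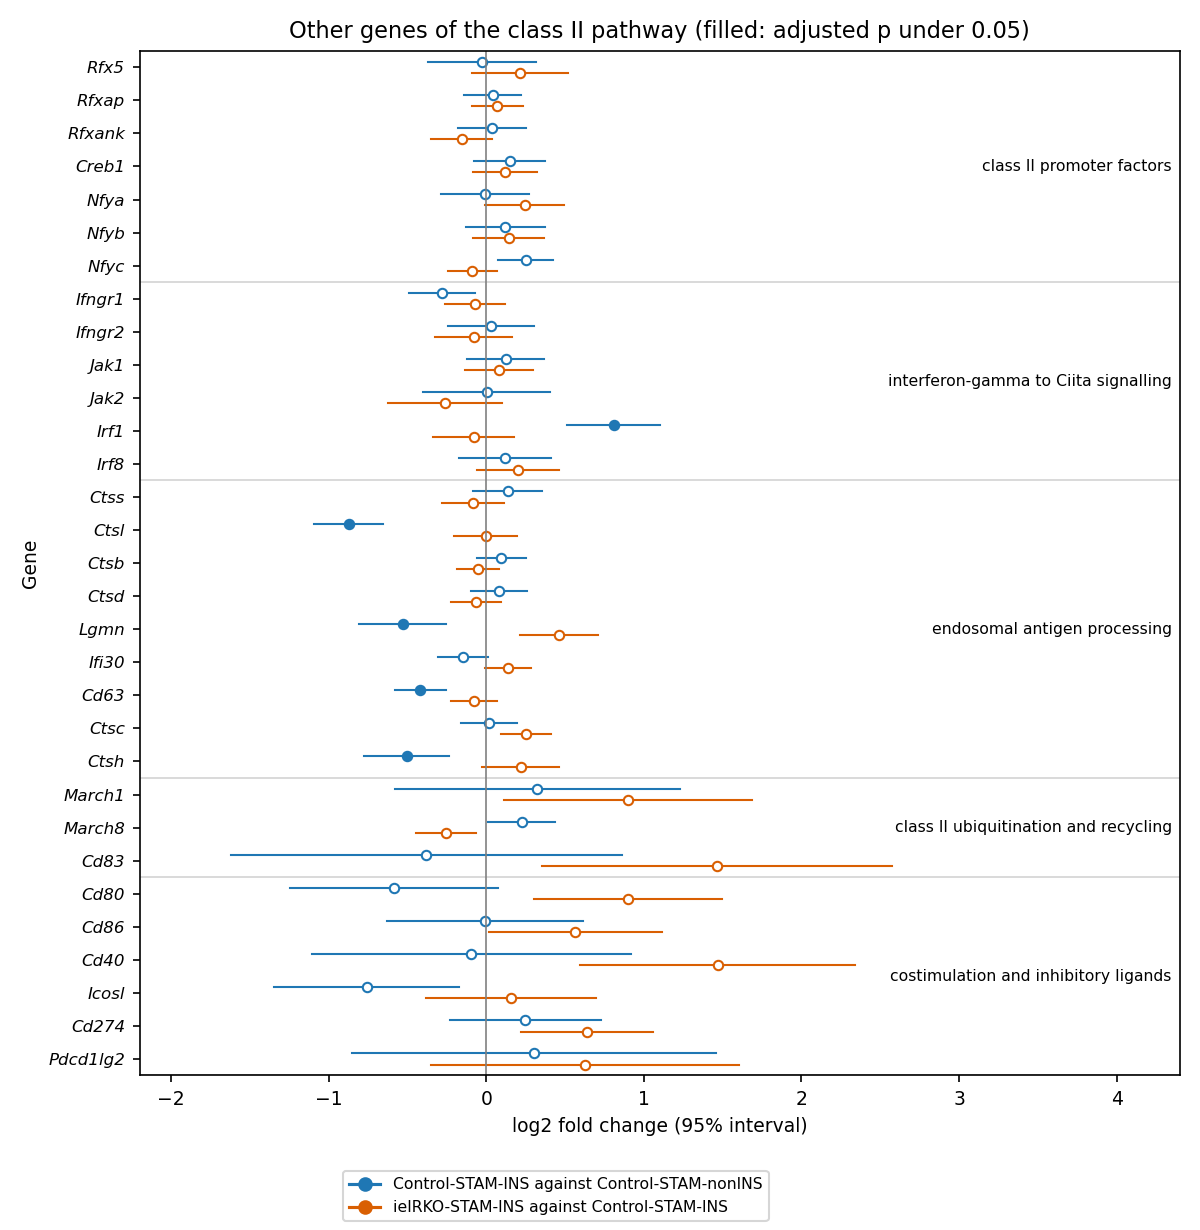
Log2 fold changes with 95% intervals (x axis) of other genes of the class II pathway, grouped by list, for insulin in the control genotype (blue) and for ieIRKO over insulin-treated controls (orange), filled where the adjusted p was under 0.05. Irf1 is filled to the right of 0 and Ctsl, Lgmn, Cd63 and Ctsh to the left in blue, and no orange point is filled.

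Genes that remove class II from the surface or act beside it were not called in the insulin or the ieIRKO comparison. March1, a ubiquitin ligase that sends class II to lysosomes, had 18.6 and 10.2 CPM in ieIRKO-STAM-INS replicates 2 and 3 and 2.27 to 4.72 elsewhere. Cd83, which opposes March1, had 42.6 and 21.8 CPM there and 3.29 to 10.8 elsewhere. The costimulatory receptor Cd40 had 7.89 and 6.16 against 0.613 to 2.88. Cd274, the inhibitory ligand PD-L1, was called higher in ieIRKO-STAM-INS than in untreated mice by 0.89 ± 0.25 on the log2 scale (edgeR, adjusted p = 0.0234). It was at 0.54 ± 0.21 without replicates 2 and 3, with an adjusted p of 0.115. Without these libraries Icosl, the ligand of ICOS, was called lower with insulin at -0.75 ± 0.19 (adjusted p = 0.022, edgeR), where 9.99% of all genes were called, and lower in ieIRKO-STAM-INS than in untreated mice at -1.11 ± 0.22 (adjusted p = 0.00734), where 8.32% were. With all libraries neither call was made. Of 12 class I genes, 1 was called with insulin, or 8.33% where 10.5% of all genes were called. It was the chaperone Calr, at 0.49 ± 0.12 (adjusted p = 0.014, edgeR), while the class I heavy chains H2-K1 and H2-D1 had values of 0.07 and 0.05.

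Markers of cells that make class II, and of T cells and plasma cells, were compared beside these results. Dendritic cell markers (Itgax the highest) summed to 16.1 to 31.7 CPM without insulin to 27.4 to 36.0 in the insulin-treated controls and to 25.6 to 56.8 in ieIRKO-STAM-INS. Of the 9 tested 1 was called higher with insulin, or 11.1% where 10.5% of all genes were called. This was Xcr1, a receptor of cross-presenting dendritic cells, at 0.596 ± 0.194 CPM (SD, n = 4) and 1.80 ± 0.268 (SD, n = 6), with a log2 fold change of 1.62 ± 0.35 (SE, adjusted p = 0.00632 from edgeR). Its untreated values rest on 7 to 11 reads per library. Of the 9 fold changes 6 were positive, and Siglech went the other way, with means of 0.873 CPM without insulin and 0.395 with it, without a call. Macrophage markers (Mertk the highest in the controls and Lyz2 in ieIRKO-STAM-INS) summed to 333 to 464 CPM without insulin, 353 to 434 in the insulin-treated controls and 298 to 528 in ieIRKO-STAM-INS, and 0 of 10 were called in any comparison. T cell markers (Cd4 the highest) summed to 16.5 to 27.2 CPM without insulin, 26.6 to 43.9 in the insulin-treated controls and 27.0 to 88.6 in ieIRKO-STAM-INS, and 3 of 8 (37.5%) were called higher with insulin: Cd3g (1.74 ± 0.34), Cd3e (1.47 ± 0.42) and Cd8a (1.33 ± 0.26). Without ieIRKO-STAM-INS replicates 2 and 3, Cd3d and Lat were called as well, 5 of 8 in all where 9.99% of all genes were called. With all libraries 7 of the 8 insulin fold changes were positive, but Cd4 did not share the rise. Without replicates 2 and 3 its log2 fold change was -0.19 ± 0.17 with insulin (adjusted p = 0.524, edgeR). Between ieIRKO-STAM-INS and untreated mice it was -0.23 ± 0.19 in that fit (adjusted p = 0.477). Between ieIRKO-STAM-INS and untreated mice, where 13.3% of all genes were called, 6 of 8 T cell and 3 of 9 dendritic cell markers were called higher, and without replicates 2 and 3, where 8.32% were, 5 of 8 and 1 of 9. B cell markers summed to 29.3 to 42.8 CPM without insulin and 24.8 to 41.5 with it, with 0 of 10 called. Plasma cell markers (Jchain the highest) summed to 1277 to 2216 and 1394 to 1980 CPM, and only Sdc1, which epithelial cells also make, was called, lower with insulin at -0.55 ± 0.11. In ieIRKO-STAM-INS plasma cell markers summed to 1721 to 3599 CPM, and 4 of 7 (Jchain, Mzb1, Tnfrsf17 and Derl3) were called higher than in Control-STAM-nonINS and 1, Sdc1, lower. When replicates 2 and 3 were left out, 5 were called higher and Sdc1 lower, at -0.73 ± 0.13 (adjusted p = 0.00393, edgeR). The dendritic cell markers Cd209a and Siglech were at 0 in at least 1 library of 1 control group each. The part of these cells in the levels of the class II genes was not tested.

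Outside the 10 genes, the 10 tested genes most like the mean log2 CPM of H2-Aa, H2-Ab1, H2-Eb1 and Cd74 over the 16 libraries were, in order, Ubd, Pxdc1, Cemip, Agfg1, Usp4, Arhgdia, Vps53, Mx1, Iigp1 and Art4. Their Pearson correlations ran from 0.822 (Ubd, with a Spearman rho of 0.644) down to 0.691 (Art4). They are the highest correlations among all tested genes and describe these 16 libraries. Ubd, a ubiquitin-like protein, and Mx1 and Iigp1 are interferon-inducible genes. Of the 10, 1 was called with insulin, where 10.5% of all genes were called. This was Mx1, with a log2 fold change of 1.18 and an adjusted p of 0.0206 from edgeR, and 0 were called in the ieIRKO comparison.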

How the data were processed

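RNA from the whole ileal wall of 16 mice was sequenced (4, 6 and 6 per group). The deposited files hold counts of reads per gene, which the authors made with CLC Genomics Workbench 21.0.3 on GRCm38. Counting strand and the treatment of multiply matching reads are not given in the sources used here, and either can move counts between overlapping or similar genes. The labels gave the groups, and nothing states pooling of mice.

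Counts were analysed with edgeR 4.0.16 (R 4.3.3). Genes were kept by filterByExpr (minimum count 10, total 15), libraries were scaled by TMM, and all 16 libraries entered one robust quasi-likelihood fit with Benjamini-Hochberg adjustment over the 15267 genes kept. A gene was called at an adjusted p under 0.05. SE is the absolute log2 fold change divided by the square root of F, and 95% intervals use 1.96 SE. Exact two-sided permutation tests used log2 CPM with a prior count of 2. The scripts were tested on simulated data. Library totals of 13288018 to 22215382 reads set the precision, which is lowest for H2-Oa. DESeq2 1.42.0, other filters and scalings, left-out libraries, a replicate block and a B cell covariate were tried as alternatives.

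The 10 genes are named because the set was given by name. The members and the pathway and marker lists were chosen with earlier results of these data known. Gene positions and transcript lengths are from GENCODE vM21, in which 97.9% of the genes with a count were found once. Some genes of these lists are not reported here.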

Additional observations from a re-analysis of the deposited data

Results flagged for a closer look

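In Control-STAM-nonINS, replicate 3 stood apart from the other 3 mice for H2-Eb1 and for H2-DMa. Its H2-Eb1 level was 294.8 CPM against 210.0 to 219.6 in the others, and on the log2 scale 0.868 of the range of the group lay between it and the next mouse. Its H2-DMa level was 44.74 CPM against 35.99 to 37.1, with 0.86 of the log2 range in between. Of 30 groups of members examined in this way 2 stood apart, where chance gives about 1.5.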

How the results depend on the processing

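In the insulin comparison 0 of the 10 genes were called, and 1, Ciita, was called with only the 2 groups in the fit, without ieIRKO-STAM-INS replicates 2 and 3, and with the B cell covariate (log2 fold change 0.78, adjusted p = 0.000869, edgeR). In the ieIRKO comparison DESeq2 called 2 where edgeR called 0. Between ieIRKO and untreated mice edgeR called 1, DESeq2 called 4, the fit of these 2 groups alone called 0, and the B cell covariate gave 2, with Ciita at 0.47 (adjusted p = 0.0452, edgeR) and H2-Ob turned to -0.70 (adjusted p = 0.0368). The covariate is highest in ieIRKO-STAM-INS replicates 2 and 3, which also hold the high H2-Ob values. Leaving out each library in turn gave 0 to 1 calls between ieIRKO and untreated mice and 0 in the other comparisons. The causes were not tested. Of 774 values of single genes under an alternative, 760 kept their direction and side of the threshold or stayed uncalled, 8 became called, 5 lost the call and 1 reversed.

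Over all genes the insulin comparison had 1602 calls and 824 without Control-STAM-nonINS replicate 1. The ieIRKO comparison had 34, with 127 by DESeq2, 90 by the likelihood ratio test and 14 with the B cell covariate, and ieIRKO over untreated mice had 2036, with 1038 in the fit of 2 groups, 1186 with the covariate, 1270 without replicates 2 and 3, and 1093 at the lowest with a library left out. With the replicate number as a block the members called were 0, 0 and 1, and 1397, 30 and 1615 genes were called in all. Libraries with the same number correlated at -0.094 to 0.179, and 4 of 14 correlated best with their own number, so the numbers were not taken as pairs. Depth limits H2-Oa most, with 10 reads in its lowest library.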
